A study of Gallus gallus with 8 samples.

Results

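Smooth muscle cells wrap the coronary arteries and the roots of the great vessels, and pericytes sit on the capillaries of the heart wall. Both are mural cells, recruited to the endothelium mainly through PDGF-B, which endothelial cells release and the receptor PDGFRB on mural cells binds. Their contractile genes are switched on by myocardin, a partner of the serum response factor SRF. In the embryonic heart several of these contractile and cytoskeletal genes are also read in cardiomyocytes, so that no single one of them marks mural cells alone. The genes described here are 10 markers of these cells, chosen by symbol: the smooth muscle actin ACTA2, the smooth muscle myosin heavy chain MYH11, TAGLN, CNN1, CALD1 and LMOD1 of the thin filament, the intermediate filament protein DES, the cofactor MYOCD, the receptor PDGFRB and the pericyte signalling gene RGS5. Of these, 8 have a row in a table of 15873 genes, and all 8 passed the filter on low values. ACTA2 and CNN1 have no row under their symbols and are not analysed here. A total of 2730 genes in the table carry no symbol.

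The libraries were made from the hearts of chicken embryos after 16 days of incubation, 2 from each of 4 breeds. Linzhi Tibetan and Lhasa White are named after places on the Tibetan plateau and were taken as highland breeds, while Chahua and White Leghorn (written "White leghom" in the labels) were taken as lowland breeds. The labels give no altitude, sex or treatment, and do not say whether the replicates of each breed are separate embryos, so the p-values measure the spread between libraries, which may be technical. In the study the RNA data accompany genome resequencing of highland and lowland populations, made to look for genes under selection.

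Values are RPKM, that is, reads scaled by the length of the gene model and by the mapped reads of the library. Read numbers recovered from their steps gave 17245669 to 22157553 mapped reads per library. Cardiomyocyte markers were high in every library, with the troponin TNNT2 at 5502 to 8848 RPKM. Lhasa White 2 and Chahua 2 stand apart in MYH7 and BMP-10, placed here among the atrial genes. They are called the libraries with atrial transcripts, a label that rests on these genes only. MYH7 reached 1457 RPKM in the first of these and 115 in the second, against at most 7.07 in the other 6. BMP-10 measured 289.7 and 22.37 there, and no more than 3.925 in any other library. The other listed atrial genes, MYL4 and NPPA, did not separate Chahua 2, where they measured 5.457 and 2419 RPKM. MYL4 was highest in Lhasa White 2 (18.91), but NPPA (1690) was below its median of 2116. The ventricular gene MYH15 was highest in Chahua 2 (4949) and lowest in Lhasa White 2 (1288). W-linked transcripts, which mark female embryos, were present in Lhasa White 2, Chahua 1, Chahua 2 and White Leghorn 1 (ATP5A1W at 398 to 496 RPKM) and at or near 0 in both Linzhi Tibetan libraries and in White Leghorn 2 (at most 0.355). Lhasa White 1 held 4.02 RPKM of it. Libraries at or below 100 RPKM of ATP5A1W, Lhasa White 1 among them, are called those without W-linked transcripts. None of the 8 genes lies on the Z or W chromosome in the GRCg7b gene table.

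The 8 genes covered a wide range of levels per length. DES, an intermediate filament protein of muscle cells, was the most abundant at 401 to 851 RPKM and stood at the 99th percentile of all genes in each library. RGS5, CALD1 and MYOCD formed a middle group between 23.7 and 60.9 RPKM. TAGLN and PDGFRB lay lower, with medians of 17.2 and 14.99 RPKM. MYH11 and LMOD1 were the scarcest, with medians of 5.33 and 2.36 RPKM, and LMOD1 stood between the 32nd and 52nd percentiles. The ranges of RGS5, CALD1 and MYOCD overlapped, as did those of TAGLN and PDGFRB and those of MYH11 and LMOD1, and MYH11 and TAGLN also reached into the ranges of the groups above them. Within each of the 8 libraries, RGS5 lay above both CALD1 and MYOCD, whereas the order of CALD1 and MYOCD, of TAGLN and PDGFRB, and of MYH11 and LMOD1 changed between libraries. Counting error was small beside these ranges. LMOD1 rested on the fewest reads, from 52 (exact 95% Poisson interval 39 to 68) to 214 (186 to 245), and DES on 10680 to 21660. Such intervals cover counting error only.

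**Figure D1:**
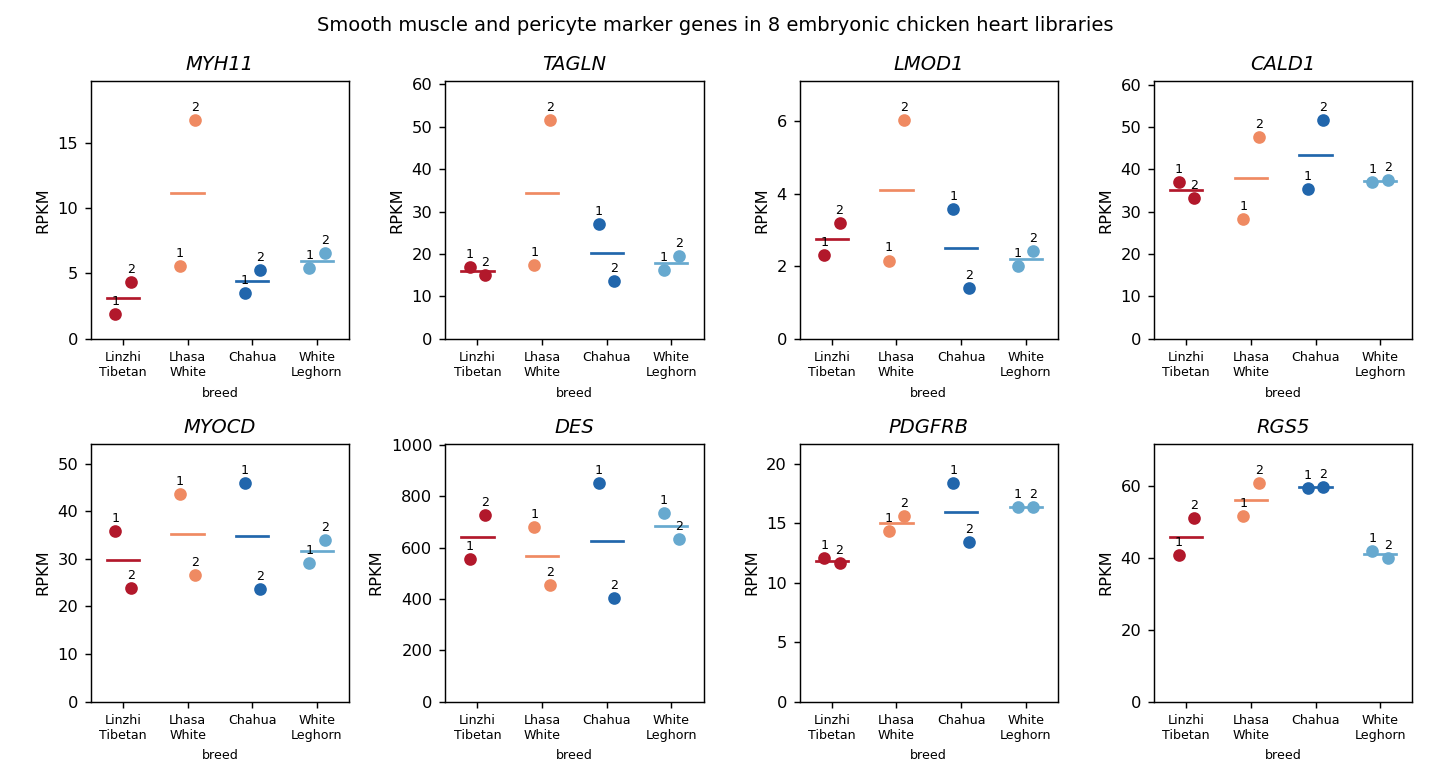
RPKM of the 8 genes (y axis, linear from 0) by breed (x axis), with 1 point per library, numbered by replicate, and a bar at the mean of each breed (n = 2). MYH11, TAGLN and LMOD1 have 1 high point each, Lhasa White 2, while the 2 PDGFRB points of Linzhi Tibetan lie below all others.

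For MYH11, TAGLN and LMOD1, grouped here after their values were seen, the highest value was in Lhasa White 2. MYH11, the myosin heavy chain that defines differentiated smooth muscle, measured 1.91 and 4.32 RPKM in the Linzhi Tibetan pair and 5.57 and 16.7 in the Lhasa White pair, while the Chahua libraries held 3.501 and 5.28 and the White Leghorn ones 5.39 and 6.57. Lhasa White 2 was 2.55 times the highest of the other 7 libraries, and Linzhi Tibetan 1 was the lowest. The 16.7 and 1.91 RPKM correspond to 2085 reads (95% interval 1996 to 2176) and 254 reads (224 to 287). Linzhi Tibetan 2 lay above Chahua 1, so the breeds overlapped.

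TAGLN, the actin-binding protein transgelin, measured 17.0 and 15.1 RPKM in the Linzhi Tibetan pair and 17.4 and 51.5 in the Lhasa White pair, while the Chahua libraries held 27.0 and 13.5 and the White Leghorn ones 16.1 and 19.6. Lhasa White 2 was again the highest, 1.91 times the next library, Chahua 1. The lowest value was in Chahua 2, the other library with atrial transcripts, and both Linzhi Tibetan libraries lay inside the range of the lowland ones. LMOD1, leiomodin 1, which starts new actin filaments in smooth muscle, measured 2.32 and 3.19 RPKM in the Linzhi Tibetan pair and 2.16 and 6.02 in the Lhasa White pair, while the Chahua libraries held 3.58 and 1.41 and the White Leghorn ones 2.01 and 2.41. Its order of libraries at both ends was that of TAGLN: Lhasa White 2, then Chahua 1, with Chahua 2 last. LMOD1 was not low in Linzhi Tibetan, where both libraries lay above those of White Leghorn 1 and Lhasa White 1.

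CALD1, caldesmon, which holds back myosin on the thin filament and is also made in non-muscle cells, followed another order. It measured 37.1 and 33.3 RPKM in the Linzhi Tibetan pair and 28.3 and 47.8 in the Lhasa White pair, while the Chahua libraries held 35.3 and 51.6 and the White Leghorn ones 37.1 and 37.6. Its highest values were in both libraries with atrial transcripts, which lay above the other 6. RGS5 had the same division, and over all genes tested 14.4% had it. For RGS5 the gap was very small, with 59.8 RPKM in Chahua 2 and 59.5 in Chahua 1.

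MYOCD and DES, which cardiomyocytes also make, were below their own means in those libraries. MYOCD measured 35.8 and 23.8 RPKM in the Linzhi Tibetan pair and 43.7 and 26.6 in the Lhasa White pair, while the Chahua libraries held 45.9 and 23.7 and the White Leghorn ones 29.2 and 34.0. In Linzhi Tibetan, Lhasa White and Chahua the replicates differed by more than the breed means did. DES measured 555 and 725 RPKM in the Linzhi Tibetan pair and 678 and 456 in the Lhasa White pair, while the Chahua libraries held 851 and 401 and the White Leghorn ones 733 and 633. Lhasa White 2 and Chahua 2 were the lowest for DES, a division seen in 5.85% of all genes tested. The high MYH11, TAGLN and LMOD1 of Lhasa White 2 stood beside a MYOCD level below that of Lhasa White 1.

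The receptor and signalling genes of mural cells varied least. PDGFRB, the PDGF receptor through which pericytes are recruited, measured 12.04 and 11.7 RPKM in the Linzhi Tibetan pair and 14.4 and 15.6 in the Lhasa White pair, while the Chahua libraries held 18.4 and 13.4 and the White Leghorn ones 16.4 and 16.4. Both Linzhi Tibetan libraries lay below the other 6, and the highest library exceeded the lowest 1.57 times. Of the 8 genes, PDGFRB alone had this division, which 6.27% of all genes tested had, and 0 of 8 had both Linzhi Tibetan libraries above the other 6, against 4.28%. The lowest value of the 8 libraries was in a Linzhi Tibetan one for MYH11 and PDGFRB, 2 of 8, and for 27.9% of all genes. In whole tissue, fewer cells of a type and less RNA per cell cannot be told apart.

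RGS5, a regulator of G protein signalling enriched in pericytes, measured 40.8 and 51.1 RPKM in the Linzhi Tibetan pair and 51.6 and 60.9 in the Lhasa White pair, while the Chahua libraries held 59.5 and 59.8 and the White Leghorn ones 42.0 and 39.9. The breeds fell into a higher pair, Chahua and Lhasa White, and a lower pair. Linzhi Tibetan 2 was close to Lhasa White 1, so the pairs were separated only narrowly. White Leghorn and Linzhi Tibetan 1 held the lowest levels.

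**Figure D2:**
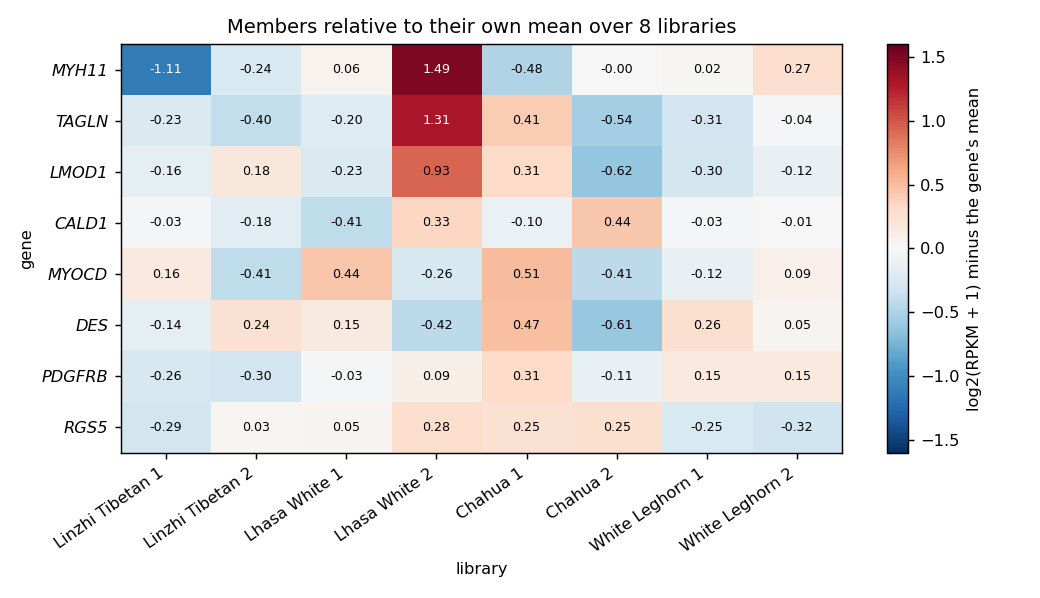
Each gene's log2(RPKM + 1) minus its own mean over the 8 libraries, by library (x axis) and gene (y axis), with the value in each cell. MYH11, TAGLN and LMOD1 reach 1.49, 1.31 and 0.93 in Lhasa White 2, where DES and MYOCD stand at -0.42 and -0.26.

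The plot of values centred on each gene's mean shows that the markers did not vary as a block. As a measure of likeness, the root mean square difference of such centred values over the 8 libraries was smallest between TAGLN and LMOD1 (0.25 on the log2 scale) and largest between MYH11 and DES (0.88). MYOCD lay 0.32 from DES but 0.87 from MYH11 and 0.62 from TAGLN. PDGFRB and RGS5 lay 0.29 apart, more than the 0.20 and 0.24 by which each deviates from its own mean. This distance is thus no sign that they vary together. All these distances share the same 8 libraries, and those of MYH11 and TAGLN are weighted by Lhasa White 2.

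The same measure was used to find the 3 other genes nearest to each of MYH11, TAGLN, PDGFRB, RGS5 and MYOCD. Nearest to MYH11 were NGFR, the neurotrophin receptor p75 (0.19), ACTG2, the smooth muscle gamma actin (0.20), and the tubulin gene TUBAL3 (0.22). ACTG2 measured 28.2 and 46.6 RPKM in the Linzhi Tibetan pair and 52.5 and 130 in the Lhasa White pair, while the Chahua libraries held 53.8 and 54.0 and the White Leghorn ones 53.0 and 71.4. It thus had the same highest and lowest library as MYH11. Actin genes share long stretches of sequence, and the part of reads from ACTA2 or other actins in the ACTG2 values was not tested.

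Nearest to TAGLN were the matrix genes COL1A2 (0.17), a chain of fibrillar collagen, and COL8A1 (0.18), a collagen made by vascular cells, followed by OLFML2B (0.20). COL1A2 ran from 1131 RPKM in Lhasa White 2 through 692 in Chahua 1 to 297 in Chahua 2, and so had the same first, second and last library as TAGLN, to which it was chosen as the nearest gene. Nearest to PDGFRB were KAZN, EVI5L and PKM, the pyruvate kinase of glycolysis, with differences of 0.058 to 0.061. Among the genes nearest to RGS5 were FAM65C (0.076) and DOC2B (0.11). Nearest to MYOCD were KLF15 (0.12), a Krüppel-like factor of cardiac and skeletal muscle, ATCAY and PNOC. For PDGFRB and RGS5 the measure has little to work on, since these genes deviate from their own mean by a root mean square of only 0.20 and 0.24.

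None of the 8 markers passed a test of breed. In the moderated F test of any difference among the 4 breeds, limma gave 0 of 8 at an adjusted p under 0.05, against 0% of the 11556 genes tested. At an unadjusted p under 0.05 there was 1 of 8, against 6.52% of all genes. That gene was RGS5 (limma adjusted p = 0.712). The voom method on recovered reads called 0 genes, with 679 of all genes at an unadjusted p under 0.05.

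The comparison of Linzhi Tibetan with the mean of the other 3 breeds was chosen with the low values of this breed already known, so its p-values are no independent support. With limma, 0 of 8 genes passed, against 0% of all genes lower and 0% higher. At an unadjusted p under 0.05, 1 of 8 had a difference, PDGFRB, against 7.49% of all genes. With voom 1 gene was called, none of the 8. The PDGFRB log2 difference was -0.38 (SE 0.14, 95% confidence interval -0.70 to -0.05, limma adjusted p = 0.629). Over all alternatives, the PDGFRB difference stayed between -0.45 and -0.31, with limma adjusted p from 0.218 to 1. In the 4 libraries without W-linked transcripts it was -0.34. There Linzhi Tibetan is set against Lhasa White 1 and White Leghorn 2 only, with no Chahua library.

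MYH11 had the largest difference of the 8, -0.90 (SE 0.40, 95% confidence interval -1.84 to 0.03, limma adjusted p = 0.657). It was -0.47 without Linzhi Tibetan 1, -0.67 without Lhasa White 2, -0.59 when both atrial-positive libraries were left out and -0.50 when the W-linked level entered as a covariate. TAGLN had a difference of -0.42 (SE 0.40, limma adjusted p = 0.822), which was most negative, at -0.67, when Lhasa White 1 was omitted and nearest to 0, at -0.17, when Lhasa White 2 was. It was -0.26 without Chahua 1, -0.20 in the libraries without W-linked transcripts and -0.032 with that covariate. The covariate rests mainly on Lhasa White and White Leghorn, the breeds whose replicates differed strongly in W-linked level. TAGLN in the library with W-linked transcripts was 51.5 against 17.4 RPKM in Lhasa White, but 16.1 against 19.6 in White Leghorn. W-linked level and other traits of Lhasa White 2 thus cannot be told apart in it. RGS5, MYOCD and CALD1 had differences of -0.17, -0.17 and -0.14, LMOD1 of 0.02 and DES of 0.07. These differences moved with single libraries: RGS5 was at -0.014 without Linzhi Tibetan 1 and -0.33 without Linzhi Tibetan 2, MYOCD at -0.45 and 0.12 without the same libraries, and CALD1 at -0.26 without Lhasa White 1 and -0.019 without Lhasa White 2. Of the 8 genes 6 lay below 0, against 53.3% of all genes, with a median of -0.17 against -0.02. The mean of Linzhi Tibetan was below the mean of every other breed for 5 of the 8, and for 28.3% of all genes.

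Between highland and lowland breeds 0 of 8 passed in limma, against 0.00865% of all genes lower and 0% higher. At an unadjusted p under 0.05 the count was 0 of 8, against 3.13% of all genes, and voom gave 0 of 8. The groups of 4 libraries overlapped for each of the 8 genes, where 0.597% of all genes had every highland library below every lowland one and 0.935% had them above. Highland PDGFRB averaged 13.4 ± 1.89 RPKM and lowland PDGFRB 16.1 ± 2.04 (SD, n = 4), and the log2 difference was -0.25 (95% confidence interval -0.53 to 0.03, limma adjusted p = 0.999). This difference was -0.14 without Chahua 1 and -0.037 in the 4 libraries with W-linked transcripts. MYH11 was at 7.13 ± 6.57 and 5.18 ± 1.27 RPKM (SD, n = 4), with a difference of 0.10. TAGLN was at 25.2 ± 17.5 and 19.1 ± 5.86 RPKM (SD, n = 4), with a difference of 0.24.

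The highland group held both the lowest MYH11 value, in Linzhi Tibetan 1, and the highest, in Lhasa White 2. Without Lhasa White 2 the differences of MYH11 and TAGLN turned to -0.26 and -0.14, and that of LMOD1 fell from 0.36 to 0.07. Of the 8 genes 4 lay below 0 (42.0% of all genes), with a median of 0.00 against 0.03.

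**Figure D3:**
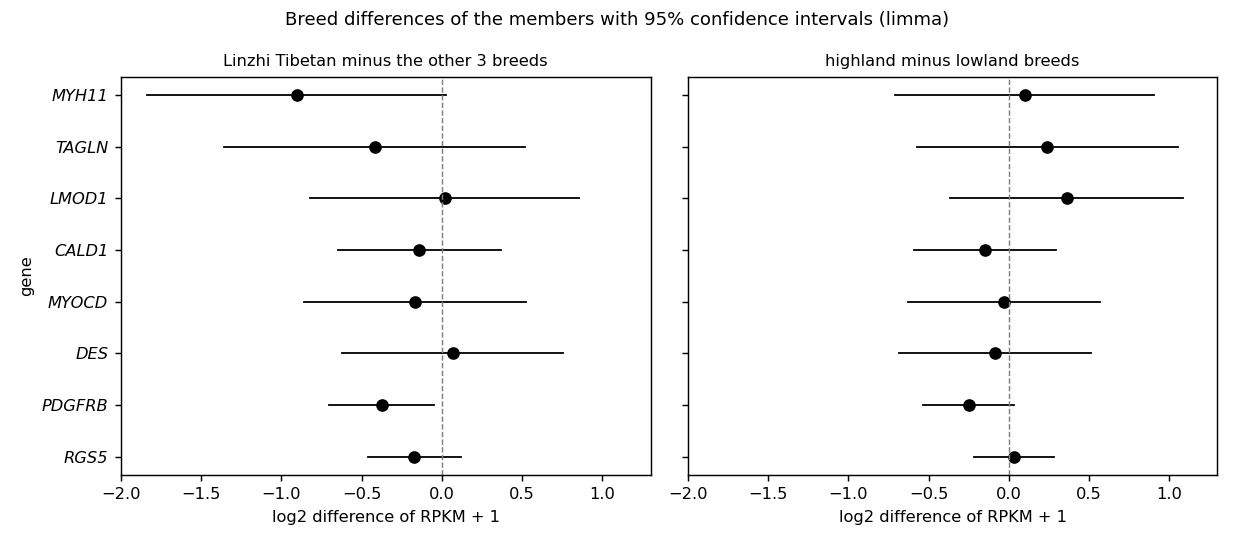
Log2 differences of RPKM + 1 (x axis, points) with 95% confidence intervals (lines) for the 8 genes (y axis), on the left for Linzhi Tibetan minus the other 3 breeds and on the right for highland minus lowland breeds. In the left panel the interval of PDGFRB, -0.70 to -0.05, is the only one that leaves out 0, and on the right every interval includes 0. The intervals are not adjusted for the number of genes tested (PDGFRB limma adjusted p = 0.629). The left comparison was chosen with the low values of Linzhi Tibetan known, and 7.49% of all genes had an unadjusted limma p under 0.05 in it.

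Lhasa White 2 is 1 library, and its high values were not tested against the other 7 libraries. They were known when the genes were chosen, so the shares given here are no independent support. It held the highest value for 4 of the 8 genes, MYH11, TAGLN, LMOD1 and RGS5, and for 22.8% of all genes tested. It was at least 1.5 times the highest of the other 7 libraries for MYH11, TAGLN and LMOD1, 3 of the 8, and for 4.03% of all genes. Relative to the median of the other 7 libraries it held 3.17 times the MYH11, 3.03 times the TAGLN and 2.60 times the LMOD1, but 1.19 times the RGS5, 1.09 times the PDGFRB and 0.672 times the DES. The median ratio over the 8 genes was 1.24, against 1.04 over all genes.

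Markers of other tissues moved in the same library. All 5 measured genes of the arterial and valve wall, with elastin (ELN) among them, were highest in Lhasa White 2, and their summed level was 1784 RPKM there, against 159 to 274 in the other 7 libraries. All 5 fibroblast genes were highest there too, with a summed level of 2859 RPKM against 899 to 1615. Of 4 atrial genes 3 were highest in this library. The epicardial genes, 6 of 6 with a row, summed to 204 RPKM there against 86.1 to 197 elsewhere, where the 197 was in Chahua 2. Of the 5 epicardial genes past the filter 3 were highest in Lhasa White 2, with a median ratio of 1.63, and UPK1B stayed at or below 0.646 RPKM in all libraries. The 7 cardiomyocyte genes and the 5 rows of ventricular genes had median ratios of 0.870 and 0.569, and 0 of them was highest in Lhasa White 2. The 8 endothelial genes had a median ratio of 0.947, with summed levels of 293 RPKM against 261 to 382 (defining markers PECAM1 and CDH5 at 75.1 and 68.6 RPKM). Of these 8, 2 were highest in Lhasa White 2, ERG (21.3 RPKM) and FLI1 (41.5 RPKM), against 22.8% of all genes. Transcripts of nerve were higher there as well, with a summed level of 18.5 RPKM over 6 genes against 1.07 to 9.52 in the other libraries. MYOD1, MYOG and PAX7, which define skeletal muscle, stayed at or below 0.391 RPKM in all libraries. The part of these tissues in the smooth muscle values was not tested.

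**Figure D4:**
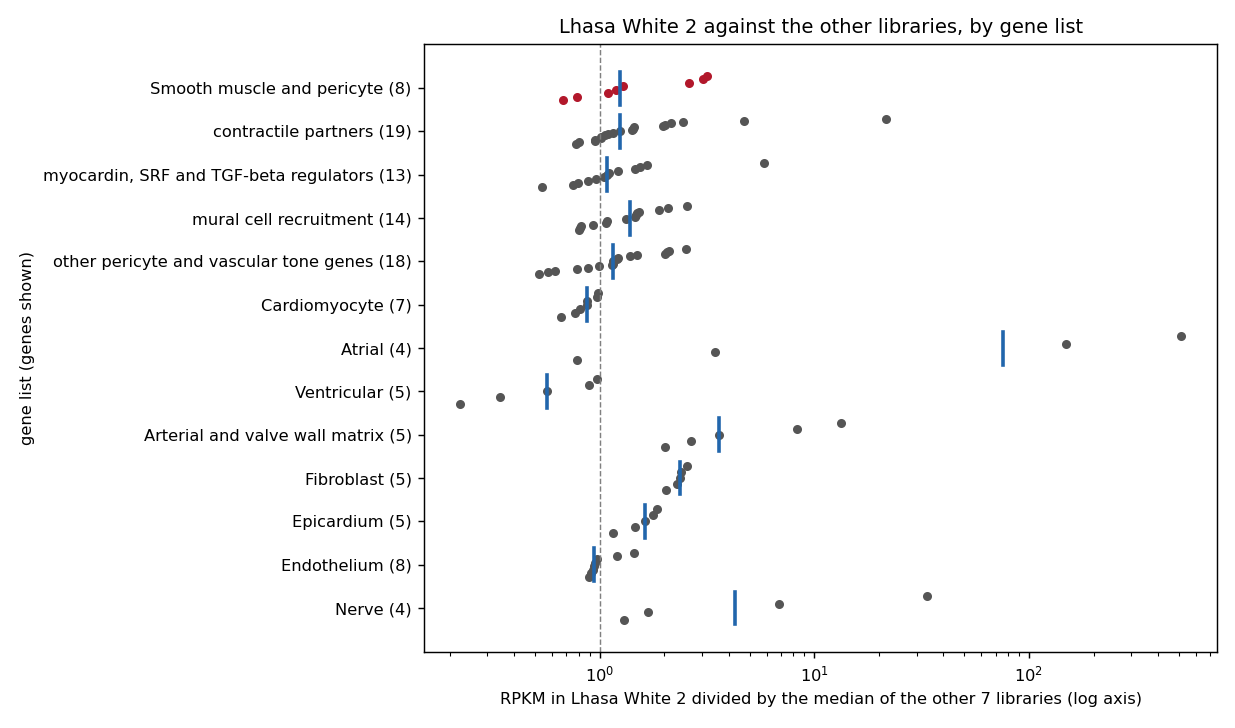
RPKM in Lhasa White 2 divided by the median of the other 7 libraries (x axis, log scale) for the 8 genes (red) and the genes of other lists (grey), 1 point per gene and a blue line at the median of each list (y axis, with the number of genes shown). MYH11, TAGLN and LMOD1, grouped after their values were seen, lie between 2.60 and 3.17, and the other markers between 0.672 and 1.29. The 5 fibroblast genes lie between 2.03 and 2.55 and the 5 wall matrix genes between 2.01 and 13.3, while cardiomyocyte genes lie below 1. The median of the 8 genes is 1.24, against 2.365 for the fibroblast genes.

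The wider machinery of mural cells was followed in 4 lists of 89 genes, of which 64 had a row and were tested. The lists were chosen with earlier results of these data known, so their shares are no independent support. In limma 0 of the 64 passed in any of the 3 tests, and 7 had an unadjusted p under 0.05 in the F test (6.52% of all genes). Relative to the other 3 breeds, 42 of the 64 were lower in Linzhi Tibetan, against 53.3% of all genes. Both Linzhi Tibetan libraries lay below the other 6 for 9 of the 64, against 6.27% of all genes.

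Among 19 contractile partners this division held for 6, namely VCL, CSRP2, ACTG2, MYLK, TPM1 and SYNPO2. VCL, vinculin, which anchors actin to the membrane, measured 44.8 and 54.1 RPKM in Linzhi Tibetan and 59.5 to 66.3 in the other libraries. CSRP2, a LIM protein of smooth muscle, measured 0.736 and 0.959 RPKM in Linzhi Tibetan and from 1.16 to 4.45 in the others except Lhasa White 2, where it reached 27.8. MYLK, the kinase that starts smooth muscle contraction, measured 30.8 and 29.5 RPKM in Linzhi Tibetan and 31.4 to 47.6 in the others. SYNPO2, an actin-bundling protein, was scarce, at 0.523 RPKM in both Linzhi Tibetan libraries and 0.531 to 2.79 in the others, so that the gap to White Leghorn 1 was very small. TPM1, a tropomyosin, measured 41.2 and 56.6 RPKM in Linzhi Tibetan and 60.4 to 132 in the others. ACTG2, MYLK, TPM1 and SYNPO2 are named here for this division, after their values were seen. SMTN, smoothelin, and LMOD2, the cardiac leiomodin, the other genes of this list with the smallest p, had log2 differences of -0.11 and 0.18 between Linzhi Tibetan and the other breeds. The limma adjusted p of the 19 genes in the F test was 0.793 or more. The median difference of the list was -0.11.

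In Lhasa White 2, 9 of these 19 genes had their highest value, against 22.8% of all genes. At least 1.5 times the next library were 6: CSRP2, ACTG2, TPM1, SYNPO2, ACTN1 and CNN2 (4.03% of all genes). ACTG2, CSRP2 and TPM1 thus shared with MYH11 both the highest library and the lowest, Linzhi Tibetan 1. SYNPO2 shared the highest library, but lay at 0.523 RPKM in both Linzhi Tibetan libraries and at 0.531 in White Leghorn 1. These genes were picked out after their values were seen. The high values of Lhasa White 2 were known when the list was chosen, so the counts above are no independent support.

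The 13 regulators around SRF and TGF-beta varied in several ways. SRF itself measured 66.5 and 88.8 RPKM in the Linzhi Tibetan pair and 61.0 and 52.9 in the Lhasa White pair, while the Chahua libraries held 76.0 and 41.9 and the White Leghorn ones 63.8 and 73.0, with its lowest values in both libraries with atrial transcripts. It is named after its values were seen. GATA6, a factor of cardiac and smooth muscle cells, was higher in both Linzhi Tibetan libraries, at 83.9 and 55.1 RPKM, than in the others, at 38.5 to 51.4 (log2 difference 0.63, limma F test adjusted p = 0.660). MEF2C, named after its values were seen, had the same division, so that it held for 2 of the 13, against 4.28% of all genes. PRRX1, a mesenchymal factor, was highest in Lhasa White 2 with 26.6 RPKM, followed by 11.6 and 10.6 in Chahua and 2.50 to 4.96 in the other libraries. TGFB3, a TGF-beta ligand, had its highest value of 137 RPKM in the same library against 60.6 to 87.0 elsewhere, and its receptor TGFBR2 at 23.0 against 11.8 to 17.4. The median difference between Linzhi Tibetan and the other breeds over the 13 genes was -0.08.

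Of 14 genes of PDGF, Notch and angiopoietin signalling, which recruit mural cells, 8 were lower in Linzhi Tibetan, near the 53.3% of all genes. Their median was -0.05. The ligand of PDGFRB, PDGFB, measured 29.3 and 29.8 RPKM in the Linzhi Tibetan pair and 19.4 and 23.6 in the Lhasa White pair, while the Chahua libraries held 34.2 and 22.6 and the White Leghorn ones 28.9 and 27.1. PDGFB is named after its values were seen. PDGFD, another ligand of this receptor, measured 8.73 and 10.7 RPKM in the Linzhi Tibetan libraries against 16.9 and 16.1 in the Lhasa White ones. The lowland libraries held 9.90 to 12.5 RPKM of PDGFD (limma F test adjusted p = 0.621). Between Linzhi Tibetan and the other breeds the log2 difference was 0.20 for PDGFB and -0.37 for PDGFD. The part of either ligand in the PDGFRB values was not tested. DLL4, the Notch ligand of arterial endothelium, was higher in both Linzhi Tibetan libraries, at 14.1 and 13.3 RPKM, than in the others, at 9.54 to 12.8. This division held for 1 of the 14, against 4.28% of all genes. HEYL, a Notch target of smooth muscle, peaked in Lhasa White 2 with 27.2 RPKM against 13.6 to 21.8 in the other libraries, and the receptor NOTCH1 at 16.7 to 26.7 in all 8.

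The 18 other pericyte and vascular tone genes had the lowest median in Linzhi Tibetan of the 4 lists, -0.25 against -0.02 over all genes. Of the 18, 13 were lower there, against 53.3% of all genes. RGS4, a relative of RGS5, measured 12.8 and 13.1 RPKM in the Linzhi Tibetan pair and 16.6 and 17.8 in the Lhasa White pair, while the Chahua libraries held 20.6 and 22.1 and the White Leghorn ones 15.4 and 14.96 (limma F test adjusted p = 0.621). Its breeds did not overlap, with Chahua highest as for RGS5. CSPG4, the NG2 proteoglycan of pericytes, measured 5.92 and 4.63 RPKM in Linzhi Tibetan and 6.91 to 9.19 in the other libraries, and the nuclear receptor NR2F2 at 30.4 and 28.3 against 32.5 to 66.4. These are named, after their values were seen, because both Linzhi Tibetan libraries lay below all others, as for PDGFRB and RGS4.

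KCNJ8 and ABCC9 encode the pore and the regulatory subunit of an ATP-sensitive potassium channel. The part of pericytes, cardiomyocytes or other heart cells in their values was not tested. KCNJ8 measured 10.2 RPKM or less in the Linzhi Tibetan pair and 10.9 and 15.2 in the Lhasa White pair, while the Chahua libraries held 15.1 and 20.4 and the White Leghorn ones 8.91 and 9.72. ABCC9 was highest in White Leghorn, at 44.5 and 33.5 RPKM, where KCNJ8 was lowest, against 8.02 to 15.2 in the others (limma F test adjusted p = 0.195). AGTR1, the angiotensin receptor, was highest in the libraries with atrial transcripts, 10.8 RPKM in Lhasa White 2 and 7.88 in Chahua 2, with 2.05 to 6.47 in the other libraries.

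**Figure D5:**
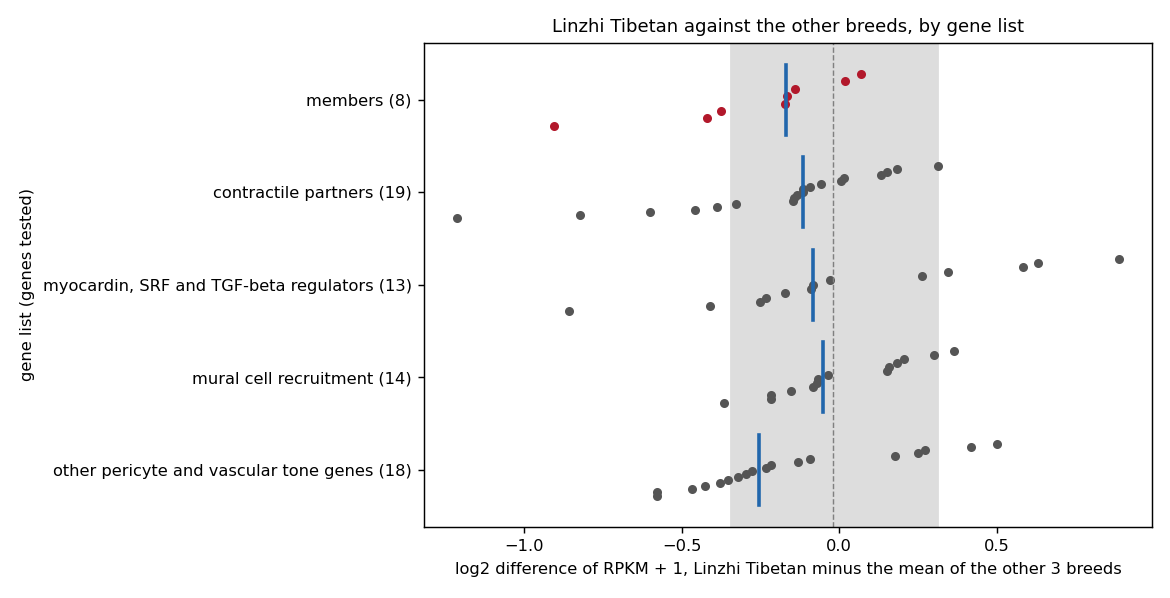
Log2 difference of RPKM + 1 between Linzhi Tibetan and the mean of the other 3 breeds (x axis) for the 8 genes (red) and 4 lists (grey), 1 point per gene, with the median of each list as a blue line. The grey band holds the 10th to 90th percentile of all genes tested, -0.34 to 0.31, and the list medians run from -0.25 to -0.05 inside it.

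Endothelial markers were not low in Linzhi Tibetan, where PDGFRB and CSPG4 were. Their summed level was 320 to 382 RPKM there and 261 to 370 in the other libraries, with all 8 listed genes measured. Not all pericyte genes were low there either. In the list that holds CSPG4, 5 of 18 genes were higher in Linzhi Tibetan, among them ANPEP (log2 difference 0.50) and MCAM (0.18). ANPEP was high only in Linzhi Tibetan 1 (52.8 RPKM), while Linzhi Tibetan 2 (28.1) lay inside the 24.15 to 32 of the other breeds. Both MCAM values, 184.8 and 164 RPKM, lay inside the 116 to 219 of the other breeds. Fibroblast genes were at a summed 899 to 1143 RPKM in Linzhi Tibetan and 1061 to 2859 in the others, and cardiomyocyte genes at 17200 to 17970 and 13630 to 17020. The blood genes HBAA, HBAD and HBE summed to 4789 RPKM in Linzhi Tibetan 1 and 17980 in Linzhi Tibetan 2. The part of these cell types in the Linzhi Tibetan values was not tested. Both Linzhi Tibetan libraries lack W-linked transcripts, so for comparisons that include Chahua, where both libraries hold them, breed and sex-linked signal cannot be told apart.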

How the data were processed

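The authors deposited a single table of RPKM values for 15873 genes in 8 libraries, per the file headers. Per the labels' protocols, TRIzol extracts were turned into libraries with Illumina's mRNA-Seq kit. The submitters' processing notes name BWA. For the build, gene models, counting, filters and strandedness, nothing is stated in the sources used here, so reads shared by paralogs or overlapping genes cannot be told apart. MYH11 and RGS5 overlap other annotated loci in GRCg7b.

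Library totals were fitted to the steps of the RPKM values, which gave whole reads for 99.87% of genes (tolerance 0.05 reads). The 11556 genes that reached 1 RPKM in 2 or more libraries were tested on log2(RPKM + 1), which understates differences of low genes, with 1 mean per breed in limma 3.58.1 (R 4.3.3, trended variance, 4 residual degrees of freedom) and Benjamini-Hochberg adjustment over all genes (threshold 0.05). Read recovery and lists used pandas 2.3.3 and NumPy 2.4.6 under Python 3.11.15, intervals SciPy 1.17.1, and plots matplotlib 3.10.9. The procedure was tested on simulated data. Alternatives covered pseudocount, filter, scaling, voom on recovered reads, a replicate block, a W-linked covariate and omitted libraries.

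The 10 genes, the lists and the comparison of Linzhi Tibetan were chosen with earlier results of these data known. Named by rule were all 10 genes, the 4 genes per list with the smallest p in the F test, and the 3 nearest genes to each of 7 markers, of which 5 have rows; 1 of these nearest genes is not reported here.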

Additional observations from a re-analysis of the deposited data

Results flagged for a closer look

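In the 4 highland libraries, TAGLN at 51.5 RPKM in Lhasa White 2 lay far from the other 3, with a gap of 0.937 of the group's range. In the 4 lowland libraries, CALD1 at 51.6 RPKM in Chahua 2 lay far from the other 3, with a gap of 0.859 of the range. Chance sets apart about 1 in 20 such groups, and each of the 8 genes was examined in the highland and in the lowland group. The high values of Lhasa White 2 were known beforehand, so this share does not apply to its TAGLN value. That gap is no independent support. Each group also mixes 2 breeds.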

How the results depend on the processing

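None of the 8 markers passed under any alternative except TAGLN between highland and lowland breeds in the 4 libraries with W-linked transcripts (1.499, limma adjusted p = 0.0457), where Lhasa White 2 is the lone highland library and is assumed to vary like the others. That setting called 115 genes. The count of called genes between highland and lowland breeds was 1 in the main test and 0 without the filter, with voom, with the replicate block, with the W-linked covariate, without both libraries with atrial transcripts and in the libraries without W-linked transcripts, and 0 to 1 over omitted libraries. For any breed difference it was 0, and 14 without the filter, with 0 to 1 over omissions (1 without Lhasa White 1). For Linzhi Tibetan it was 0, and 12 without the filter and 1 with voom.

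The libraries without W-linked transcripts are both Linzhi Tibetan ones, Lhasa White 1 and White Leghorn 2. Chahua is absent from them and White Leghorn 2 is the lone lowland library, so their contrasts differ from the main ones. The W-linked covariate rests mainly on the Lhasa White and White Leghorn pairs, and is no clean adjustment for sex. Some differences that passed no test changed sign, and the cause was not tested. For Linzhi Tibetan these were CALD1 without the atrial libraries (0.071), with the W-linked covariate (0.106) and without W-linked libraries (0.104), DES in the same settings (-0.207, -0.034 and -0.046) and with quantile normalization (-0.010), and RGS5 without W-linked libraries (0.008). Between highland and lowland breeds, sign changed without the atrial libraries for LMOD1 (-0.16), MYH11 (-0.14), RGS5 (-0.024) and TAGLN (-0.38), in the libraries without W-linked transcripts for DES (0.052), MYH11 (-0.57), MYOCD (0.072) and TAGLN (-0.22), in those with them for CALD1 (0.26), and with the covariate for CALD1 (0.009). Over omitted libraries the highland differences ran from -0.331 to 0.036 for CALD1, -0.36 to 0.18 for DES, -0.26 to 0.46 for MYH11, -0.26 to 0.20 for MYOCD, -0.047 to 0.112 for RGS5, -0.14 to 0.62 for TAGLN and -0.36 to -0.14 for PDGFRB, and those of Linzhi Tibetan from -0.12 to 0.26 for DES, -0.331 to -0.014 for RGS5, -0.264 to -0.019 for CALD1, -0.17 to 0.21 for LMOD1 and -0.45 to 0.12 for MYOCD.

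Replicate numbers are shared by the breeds, but same-numbered libraries did not deviate together (correlations across genes from -0.33 to 0.17), so the block has no basis in pairing, and it changed no call of the 8 markers. LMOD1, at 52 to 214 reads, is the gene that depth limits most.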
